A study of Rattus norvegicus with 4 samples.

Results

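The interneurons described here are 155 of the 26228 nuclei sequenced from rat nucleus accumbens, chosen on their raw counts of unique molecular identifiers (UMIs, each standing for 1 captured RNA molecule). A nucleus was taken when it held at least 200 genes, 3 or more Sst UMIs, 1 or more UMIs of Npy and Nos1 together, 1 or more of Gad1 and Gad2 together, and at most 1 of Drd2 and Ebf1 together. They are called Sst/Npy nuclei below. The tissue came from adult Sprague-Dawley rats aged 90 to 120 days, of both sexes, that had received cocaine at 20 mg/kg or saline once a day for 7 days and were sampled 1 hour after the last injection. A 2 mm punch around the accumbens core was taken, and tissue of 4 rats was pooled for each library, so that 16 rats gave 1 library for each sex and treatment. The labels name no transgene or deletion. A group is therefore 2 libraries, 1 female and 1 male, and every p-value measures the spread between 4 pooled libraries, not between rats.

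The striatum and accumbens are built mostly of GABAergic medium spiny neurons, whose dopamine receptors Drd1 and Drd2 divide them into 2 output pathways. A small group of local interneurons makes somatostatin (Sst) and neuropeptide Y (Npy), packs them into dense-core vesicles, and makes nitric oxide with neuronal nitric oxide synthase (Nos1). These cells migrate from the medial ganglionic eminence, where Lhx6 and then Sox6 and Satb1 set their fate. Peptides reach the vesicle as precursors that are cut by prohormone convertases and sorted with granins such as Scg2 and Vgf.

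The rule found 25 nuclei of 6375 in females on saline, 57 of 7265 in females on cocaine, 33 of 6213 in males on saline and 40 of 6375 in males on cocaine. Sets of 4 values below keep that order of libraries. Their share of nuclei was 0.392% (95% exact binomial interval 0.254 to 0.578%), 0.785% (0.595 to 1.02%), 0.531% (0.366 to 0.745%) and 0.627% (0.449 to 0.853%) in that order. The cocaine library held the larger share in both sexes, with intervals that overlapped in males and not in females, and these intervals cover counting error only. When every nucleus with 3000 or more UMIs was thinned to 3000 and the rule applied again, the shares were 0.197%, 0.655%, 0.313% and 0.682%. A minimum of 3 Sst UMIs sets these shares, so they move with depth and with the Sst level, and no test was made on them. At the edge of the rule, 2, 7, 3 and 1 nuclei of the 4 libraries had exactly 3 Sst UMIs, and 3, 7, 1 and 2 nuclei that met every other condition had 2.

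The libraries held between 31484217 and 40737786 UMIs in all. A median Sst/Npy nucleus held 8033, 5860, 5718 and 4541.5 UMIs in the 4 libraries, and their summed UMIs were 224348, 371730, 192858 and 215194. The cocaine nuclei were thus shallower than the saline nuclei of the same sex. Between 10 and 18 cell barcodes were shared by any pair of libraries, and 0 of them belonged to Sst/Npy nuclei. Scrublet scores marked 3, 4, 0 and 1 of the Sst/Npy nuclei as likely doublets, and they stay in the values below unless stated. The share marked was set in advance, at 5.10%, 5.81%, 4.97% and 5.10% of all nuclei in the 4 libraries. Of the Sst/Npy nuclei 5.16% were marked.

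Sst, Npy and Nos1 chose these nuclei, so their levels are a description. Somatostatin transcript averaged 7.64, 7.77, 7.82 and 9.72 UMIs per nucleus. Npy averaged 12.8, 10.5, 13.7 and 10.2 UMIs per nucleus in the same order. Nos1 averaged 5.84, 3.42, 4.21 and 3.02. Both Npy and Nos1 were seen in 103 of the 155 nuclei, Npy without Nos1 in 43 and Nos1 without Npy in 9. The double-positive share was 60%, 66.7%, 84.8% and 55% in the 4 libraries, highest in saline males. At 3000 UMIs per nucleus, 60%, 59.6%, 78.1% and 61.1% of the nuclei kept a Nos1 UMI (68.0%, 70.2%, 90.9% and 62.5% before thinning). The thinned share in oligodendrocytes was 0%, 1.23%, 0% and 0%. Medium spiny neurons give no such background, since that class was picked to hold 0 UMIs of Sst, Npy and Nos1.

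Other genes of the same lineage, which the rule did not use, were found in the same nuclei. The comparison classes were picked on UMIs as well (with 0 Sst UMIs for the 2 other GABAergic classes): 185 nuclei rich in Kit and Pthlh (another GABAergic interneuron class, called Pthlh/Kit below), 4880 medium spiny neuron nuclei, 274 glutamatergic, 6513 oligodendrocyte and 1333 astrocyte nuclei. Tacr1, the substance P receptor, averaged 5.62 UMIs per Sst/Npy nucleus against 0.124 in Pthlh/Kit nuclei and 0.0299 in medium spiny neurons. Sox6 averaged 18.6 UMIs per Sst/Npy nucleus, 6.84 per Pthlh/Kit nucleus and 0.161 per medium spiny neuron. Both genes were higher in each of the 4 Sst/Npy libraries than in any library of the other 5 classes.

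Lhx6, the transcription factor of the eminence-derived lineage, averaged 0.787 UMIs per Sst/Npy nucleus, 0.238 per Pthlh/Kit nucleus and 0.00369 per medium spiny neuron. Chodl, which marks the long-range nitric oxide cells among Sst neurons of the cortex, averaged 0.394 UMIs and was at 0 in Pthlh/Kit nuclei. The NMDA receptor subunit gene Grin3a averaged 1.98 against 0.211, and the muscarinic receptor gene Chrm2 4.33 against 1.57. Nxph1 and Erbb4 went the other way. Nxph1, a neurexin ligand, averaged 13.2 UMIs per Sst/Npy nucleus and 69.2 per Pthlh/Kit nucleus, and the neuregulin receptor gene Erbb4 averaged 9.55 against 109. Col11a1, listed as a marker of the class, was weaker: it averaged 1.14 UMIs per Sst/Npy nucleus, 0.415 per medium spiny neuron and 0.544 per glutamatergic nucleus.

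**Figure D1:**
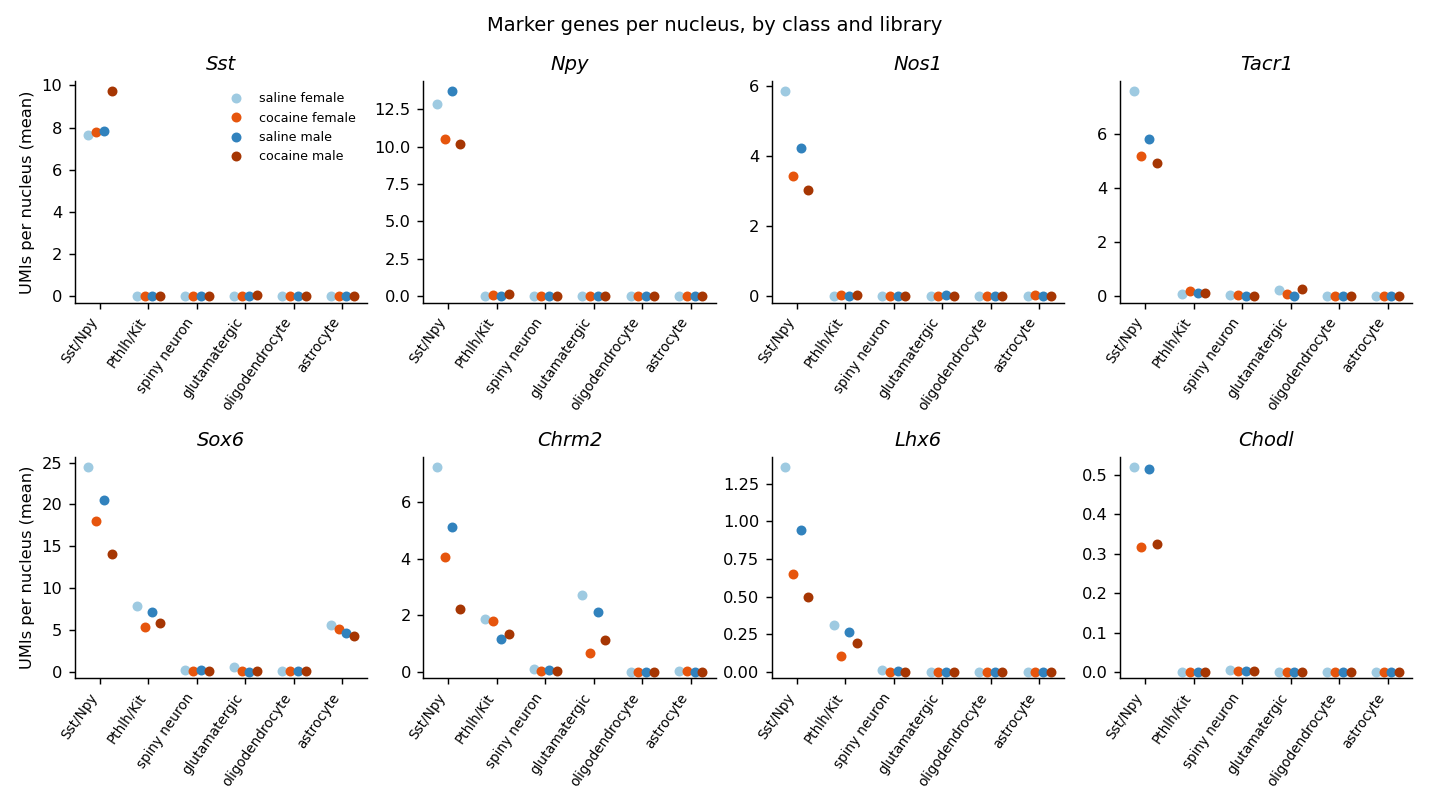
Mean UMIs per nucleus (vertical axes, linear, 1 scale per gene) of 8 genes in 6 classes of nuclei (horizontal axis); each point is 1 library. Sst, Npy and Nos1 chose the Sst/Npy nuclei; Tacr1 averaged 5.62 UMIs per Sst/Npy nucleus and Sox6 18.6, above every other class in all 4 libraries.

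The nuclei were not uniform. Of the 155, 138 held 5 or more Sox6 UMIs and 17 held fewer. A limit of 5 was chosen after the values were seen. Among the 17, 1 had a Nos1 UMI, 1 had a Tacr1 UMI, and 10 held 5 or more UMIs of Meis2, a transcription factor of medium spiny neurons, and 10 held Penk, the enkephalin precursor of that class. Among the 138, 111 had Nos1, 129 had Tacr1, 2 had 5 or more Meis2 UMIs and 17 had Penk. The 17 nuclei came from all libraries (3, 7, 3 and 4), so between 9.09% and 12.3% of each library's Sst/Npy nuclei met the rule without the Sox6 level of the others.

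RNA of medium spiny neurons was present at a lower level than in those neurons. A list of 15 of their markers summed to 25.6, 22.4, 17.7 and 26.4 UMIs per Sst/Npy nucleus in the 4 libraries. As a share of all UMIs of these nuclei, the list was higher in both cocaine libraries than in both saline libraries. Those values are given with Tac1 below. The same list gave 82.9 to 103 UMIs per medium spiny neuron, 20.7 to 35.2 per glutamatergic nucleus, 8.65 to 18.6 per Pthlh/Kit nucleus, 2.79 to 4.64 per astrocyte and 0.540 to 0.778 per oligodendrocyte. The level in Sst/Npy nuclei was thus far above that of oligodendrocytes in each library. Per nucleus it overlapped the range of glutamatergic nuclei, which were deeper, with medians of 9157 to 13709 UMIs. As a share of all UMIs, the list was higher in each Sst/Npy library than in every glutamatergic library. Most of the list's UMIs in Sst/Npy nuclei came from Pde10a and Rarb, genes that averaged 10.1 and 7.61 UMIs per nucleus. Some genes of the list were low, among them the receptor genes Drd2 and Adora2a. Drd1, a receptor gene that the rule did not cap, had UMIs in all 4 libraries. Drd2 was capped by the rule, and medium spiny neurons were picked on 4 or more UMIs of Drd1, Drd2 and Ebf1 together. Its contrast between these 2 classes was thus set by the choice of nuclei. Drd2 averaged 0.0968 UMIs per Sst/Npy nucleus, 4.70 per medium spiny neuron, 0.0693 per glutamatergic nucleus and 0.00906 per oligodendrocyte. Adora2a averaged 0.0710 UMIs per Sst/Npy nucleus against 1.10 per medium spiny neuron, and Ppp1r1b (DARPP-32) 0.129 against 1.70. Pdyn and Ebf1 were at 0 in both saline libraries, Pdyn at 0 in cocaine females and Ebf1 at 0 in cocaine males. Of the 155 nuclei, 54 held any UMI of Drd1, Drd2, Ebf1 or Adora2a: 32.0%, 31.6%, 54.5% and 25% by library.

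Oligodendrocyte RNA in these nuclei differed between libraries. Mbp, Mog, Mobp and Mag together gave 0.32, 2.37, 0.879 and 1.82 UMIs per Sst/Npy nucleus, against 1.13 to 1.38 per medium spiny neuron in the 4 libraries. Both cocaine libraries lay above both saline libraries. Of the 155 nuclei, 6 held 10 or more such UMIs: 4 in cocaine females, 1 in saline males and 1 in cocaine males. At most 2 such UMIs were held by 25 of 25, 52 of 57, 31 of 33 and 39 of 40 nuclei in the 4 libraries. Markers of other classes were sparse. Pthlh was at 0 in every library's Sst/Npy nuclei, while Kit and Kcnmb2 were both seen in each and brought that list to 6, 22, 4 and 6 UMIs. Of the cholinergic list Chat and Tbx3 were at 0, and Slc5a7 gave 1, 2, 3 and 1 UMIs. Vip and Crh were at 0, and their list of 5 summed to 13, 7, 8 and 10 UMIs. The glutamatergic list summed to 2, 4, 0 and 2 UMIs with Slc17a6 at 0, and the vascular markers Pdgfrb and Rgs5 were at 0.

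**Figure D2:**
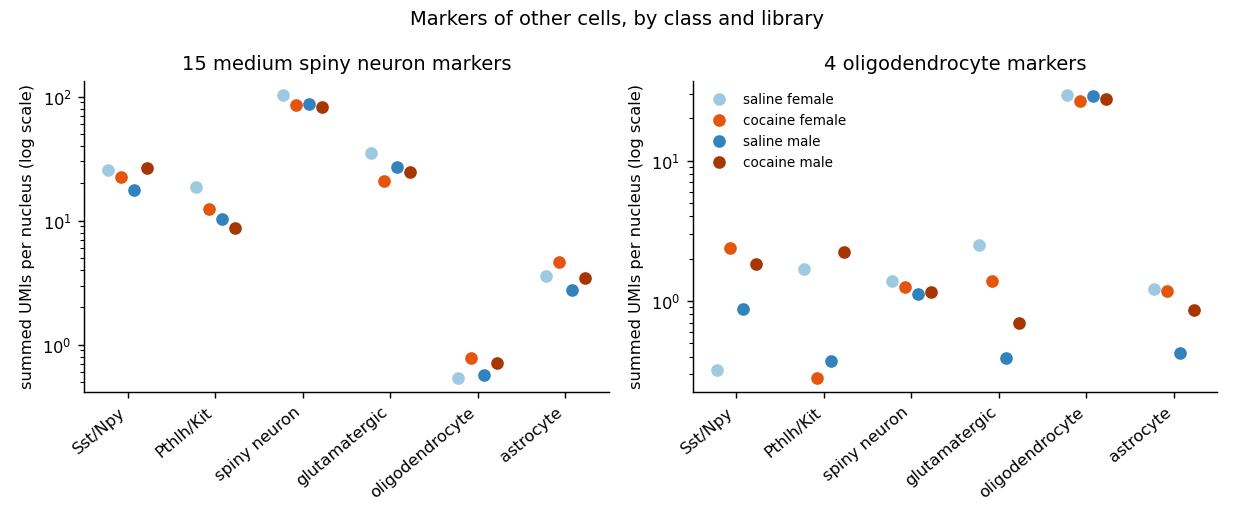
Summed UMIs per nucleus (log scale) of 15 medium spiny neuron markers and of 4 oligodendrocyte markers in 6 classes of nuclei; each point is 1 library. Sst/Npy nuclei held 17.7 to 26.4 UMIs of the medium spiny list, and 0.32 to 2.37 UMIs of the oligodendrocyte list with both cocaine libraries above both saline libraries.

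Cocaine was then compared with saline on UMIs summed over the Sst/Npy nuclei of each library, with sex as a covariate. Vgf and Scg2, of the granins of dense-core vesicles, rose: Vgf was 3.10-fold and Scg2 2.45-fold higher in the cocaine libraries. The other 12 tested genes of the dense-core list did not pass. Tac1, Pde10a, Reln, Npas3 and the myelin gene Mbp were also higher, and Stimate, Prlr, Adarb2 and the muscarinic receptor gene Chrm2 were lower. Of 4813 genes tested, 36 passed an adjusted p of 0.05 in edgeR's quasi-likelihood test, or 0.748%: 24 were higher (0.499%) and 12 lower (0.249%). All 36 had the same sign in females and in males. They were picked by a test on these same libraries, so the shared sign is no separate support.

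These calls rest on a pooled spread: with 1 residual degree of freedom, edgeR's prior degrees of freedom were infinite, so that genes of like level shared 1 spread. No gene passed in 4 other fits: 0 by DESeq2 (34 at an unadjusted p under 0.05), 0 by edgeR without the sex covariate (334), 0 without the 8 nuclei marked as doublets (313) and 0 among nuclei with no UMI of Drd1, Drd2, Ebf1 or Adora2a (269). The edgeR fits among these had finite prior degrees of freedom: 11.1 without the sex covariate, 9.65 without the marked doublets and 7.81 in the last. Genes shared their spread less in them than in the main fit. Those 4 fits reused the same libraries, and the sign of each of the 36 held in each that tested it. With all nuclei 443 genes had an unadjusted p under 0.05 in the main fit. Without the saline female library 20 genes were called, and among nuclei with 5 or more Sox6 UMIs 4 were (Vgf, Scg2, Mbp and Adarb2). The fits that left out 1 library had infinite prior degrees of freedom, as the main fit did. Calls kept in them thus rest on the same kind of pooled spread. In 15 of the 36 genes a single nucleus gave 50% or more of the UMIs of some library.

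Vgf, whose product is a granin-like secreted precursor, was seen as 20 UMIs in females on saline, 90 in females on cocaine, 20 in males on saline and 83 in males on cocaine. Scaled by library with the trimmed mean of M-values (TMM), these were 104, 276, 119 and 431 CPM (counts per library scaled to a common total). Both cocaine libraries lay above both saline libraries. The saline mean was 111 ± 10.2 CPM and the cocaine mean 353 ± 110 CPM (SD, n = 2 libraries each), a log2 fold change of 1.63 ± 0.27 (SE) with an adjusted p of 2.2e-06 in edgeR. Leaving out 1 library at a time gave 1.33 to 1.96. The adjusted p was 0.083 without the marked doublets, at a log2 fold change of 1.79, and 0.085 in the nuclei without medium spiny receptor UMIs, at 2.28.

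The rise was spread over nuclei. Vgf UMIs were seen in 11 of 25, 32 of 57, 12 of 33 and 27 of 40 Sst/Npy nuclei, and the nucleus with the most gave 13.3% to 24.1% of a library's Vgf. At 3000 UMIs per nucleus, which leaves out 0, 0, 1 and 4 shallower nuclei, 16.0% of saline female nuclei, 36.8% of cocaine female, 18.8% of saline male and 61.1% of cocaine male nuclei held a Vgf UMI. The thinned share in oligodendrocytes, whose median depth was 1540 to 2050 UMIs before thinning, was 0.373%, 5.56%, 0.870% and 2.11% for Vgf. In medium spiny neurons, of median depth 7578 to 10468 UMIs, it was 5.32%, 6.77%, 7.37% and 9.23%. Sst/Npy nuclei were above both classes in each library. In oligodendrocytes, as in Sst/Npy nuclei, both cocaine libraries were above both saline libraries. In medium spiny neurons the groups overlapped. The part of free RNA in the Vgf shares was not tested.

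Scg2, the secretogranin II gene, was seen as 17, 75, 26 and 70 UMIs in the 4 libraries. On the TMM scale this was 88.6, 230, 154 and 363 CPM, again with both cocaine libraries above both saline ones. The means were 121 ± 46.4 and 297 ± 94.5 CPM (SD, n = 2 each), and the log2 fold change was 1.29 ± 0.27 (SE) with an adjusted p of 0.00081. The Scg2 call was lost without the saline female library, at a log2 fold change of 0.91, and without the cocaine male library, at 0.96. The share of nuclei with an Scg2 UMI at 3000 UMIs was 28.0%, 31.6%, 25% and 38.9%, with oligodendrocytes at 1.49%, 4.32%, 0.870% and 11.6%. Both cocaine libraries were above both saline libraries in this share, which comes from the same UMIs as the call. The oligodendrocyte share had the same order. In cocaine females 1 nucleus gave 36.0% of the Scg2 UMIs, and in saline males 1 gave 38.5%.

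**Figure D3:**
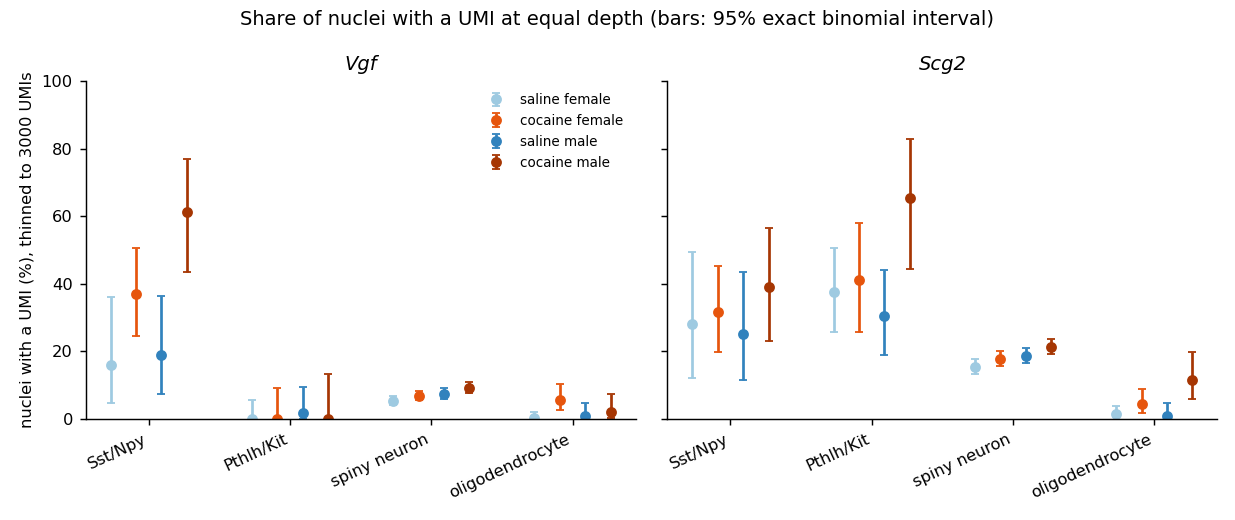
Share of nuclei with a UMI of Vgf (left) and of Scg2 (right) after thinning to 3000 UMIs, by class and library; points are libraries and bars 95% exact binomial intervals. For Vgf the Sst/Npy nuclei ran from 16.0% to 61.1% with both cocaine libraries on top, while for Scg2 they ran from 25% to 38.9%.

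The dense-core vesicle and peptide-processing list held 16 genes, of which 14 passed the count filter. Of these, 2 rose (Vgf and Scg2), 0 fell and 12 did not pass. In 4 of the 14 both cocaine libraries lay above both saline libraries, and in 2 below, against 17.6% and 19.0% of all genes tested. The median log2 fold change of the 14 was 0.34, beside -0.0025 over all 4813 genes. Among members that did not pass, Chgb (chromogranin B) had a log2 fold change of 0.56 ± 0.31 (SE), Ptprn, a vesicle membrane protein gene, 0.55 ± 0.25, and Pam, which amidates peptides, 0.49 ± 0.21. The convertase gene Pcsk2 stood at 0.09 ± 0.23 and the vesicle gene Ptprn2 at -0.33 ± 0.20. Vgf and Scg2 had the 2 highest values of the list.

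Promoter windows of the granin genes are shown because Vgf and Scg2 moved together and both carry a full cAMP response element, the 8 bases TGACGTCA to which CREB family factors bind, as do 2 of the genes that chose the nuclei. The windows are RefSeq sequence of build GRCr8, 120 bases each, with the element in capitals; the letters read the same on both strands.
Vgf (chr12:25277047-25277166, minus strand): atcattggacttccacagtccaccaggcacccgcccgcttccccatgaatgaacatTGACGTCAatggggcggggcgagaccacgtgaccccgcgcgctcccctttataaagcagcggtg
Scg2 (chr9:88256926-88257045, minus strand): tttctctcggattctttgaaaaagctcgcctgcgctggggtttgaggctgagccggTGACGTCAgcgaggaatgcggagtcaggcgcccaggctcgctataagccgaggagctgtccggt
Sst (chr11:90461456-90461575, plus strand): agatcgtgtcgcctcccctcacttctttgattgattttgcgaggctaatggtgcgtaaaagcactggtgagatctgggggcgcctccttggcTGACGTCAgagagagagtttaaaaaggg
Nos1 (chr12:44371808-44371927, minus strand): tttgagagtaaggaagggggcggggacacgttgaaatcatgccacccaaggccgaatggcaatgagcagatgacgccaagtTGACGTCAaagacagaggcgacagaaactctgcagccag
The element starts 90 bases before the annotated start of Vgf, 123 before that of Scg2 and 9 before that of Nos1, and lies just after the annotated start of Sst. It was found in 612 of 33469 promoter windows of 300 bases (1.83%) and in 121 of 3682 windows of genes tested here (3.29%). Of the 36 called genes 27 had a window, and 3 of them held the element: Vgf, Scg2 and Ell2, a transcription elongation factor gene with a log2 fold change of 1.39 ± 0.37 (SE). No full element was found in the windows of Npy and Col11a1, which says only that these letters are absent there. Whether the element takes part in the change of Vgf, Scg2 or Ell2 was not tested.

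Sst, Npy and Nos1 chose the nuclei, so their cocaine and saline values are given as a description, with no test. Sst stood at 996, 1357, 1530 and 2019 CPM in the 4 libraries (log2 fold change 0.42 ± 0.19, SE). Npy was at 1673, 1831, 2681 and 2118 CPM (-0.11 ± 0.18), and its groups overlapped. Nos1 was at 761, 597, 825 and 628 CPM, below both saline libraries in both cocaine libraries (-0.37 ± 0.21). Col11a1, which the rule did not use, was at 93.8, 239, 178 and 260 CPM, a log2 fold change of 0.92 ± 0.27 with an adjusted p of 0.067. Both cocaine libraries lay above both saline libraries for Col11a1, and the call was not made.

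Of 20 identity genes 11 were tested, 0 rose and 0 fell, and their median log2 fold change was -0.24. Both cocaine libraries lay below both saline libraries in 5 of the 11 and above in 0, against 19.0% and 17.6% of all genes tested. Lhx6 showed the lowest value of the list, -0.72 ± 0.28 (SE), with 177, 113, 184 and 104 CPM and an adjusted p of 0.28. Sox6 stood at -0.24 ± 0.18 and the substance P receptor gene Tacr1 at -0.14 ± 0.20.

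Of the 13 nitric oxide and cyclic GMP genes, 7 were tested, Nos1 of the rule among them, and 0 rose and 0 fell; their median was -0.13. Gucy1a1 and Gucy1b1, subunits of the nitric oxide receptor guanylate cyclase, stood at -0.13 ± 0.31 and 0.48 ± 0.42 (SE), and Nos1ap, whose product binds the synthase, at -0.25 ± 0.25.

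Receptor genes were mostly too low to test: 8 of 26 passed the filter, 0 rose and 1 fell, and their median was -0.10. Chrm2, the M2 muscarinic acetylcholine receptor gene, was at 181, 232, 169 and 89 UMIs, or 943, 710, 1002 and 462 CPM. Its cocaine mean was 586 ± 176 CPM and its saline mean 973 ± 41.7 CPM (SD, n = 2 each), a log2 fold change of -0.73 ± 0.20 (SE) with an adjusted p of 0.046. The Chrm2 call was lost without either saline library and without the cocaine male library, where the value was -0.43. Receptors for the cells' own peptides, Sstr1, Sstr2, Sstr3, Sstr4, Sstr5, Npy1r, Npy2r and Npy5r, each had under 10 UMIs over all Sst/Npy nuclei. Htr2c, a serotonin receptor gene, stood at 0.17 ± 0.20 and Grm5, a metabotropic glutamate receptor gene, at -0.15 ± 0.20.

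Immediate-early genes could hardly be read at this depth: of 32, 8 had 10 or more UMIs in all and only Homer1 passed the filter. Homer1, a synaptic scaffold gene, was at 198, 257, 125 and 228 CPM, with both cocaine libraries above both saline libraries, at 0.57 ± 0.26 (SE) and an adjusted p of 0.45. None of the others was tested. Fos gave 0, 8, 2 and 5 UMIs, Fosl2 1, 11, 0 and 5, and Junb 0, 12, 2 and 7 in the 4 libraries. These sums were higher in the cocaine library of each sex, where the summed UMIs over all genes were higher too. A change in other members was not detectable at this depth.

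Among the other genes that rose, 2 belong to the medium spiny marker list. Tac1, the precursor of substance P and the ligand of Tacr1, was seen as 6, 37, 9 and 36 UMIs (31.3, 113, 53.4 and 187 CPM), a log2 fold change of 1.81 ± 0.38 (SE), adjusted p 0.00081. Tac1 UMIs were in 5 of 25, 9 of 57, 4 of 33 and 15 of 40 nuclei. Pde10a, a phosphodiesterase gene, was at 1204, 1779, 1062 and 3016 CPM, a log2 fold change of 1.03 ± 0.19 with an adjusted p of 3.1e-05. Both cocaine libraries were above both saline libraries for each gene. Over the 7 tested genes of that list, 2 rose, 0 fell and the median was 0.06; Penk stood at -0.80 ± 0.36 and Meis2 at -0.57 ± 0.25, neither passing. Over all 15 genes of that list, CPM without TMM scaling was 2857, 3438, 3023 and 4912 in Sst/Npy nuclei. It was 235, 389, 302 and 410 in oligodendrocytes and 926, 1281, 877 and 1145 in astrocytes. In each of these classes both cocaine libraries were above both saline libraries. In medium spiny, glutamatergic and Pthlh/Kit nuclei the groups overlapped. Glutamatergic nuclei were at 2527, 1830, 2084 and 2509. Apart from the fits on chosen nuclei that follow, the part of such RNA in the Tac1 and Pde10a values was not tested. With free RNA subtracted, Tac1 was at 1.89 (adjusted p 0.0046) and Pde10a at 1.08. That subtraction could take at most the oligodendrocyte level, 0.540 to 0.778 UMIs of the list per nucleus. Sst/Npy nuclei held 17.7 to 26.4, so this fit cannot decide the question. The Tac1 call was lost without the saline female or the cocaine male library, and the Pde10a call without the cocaine male library, at 0.67. In nuclei with no medium spiny receptor UMI Tac1 was at 1.45 (adjusted p 0.55) and Pde10a at 1.40 (0.18), and with 5 or more Sox6 UMIs they were at 1.78 (0.14) and 1.27 (0.061). Tac1 also rose in the medium spiny neuron nuclei of these libraries, by 0.67 ± 0.07 on the log2 scale (adjusted p 9.3e-05).

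Reln, an extracellular matrix protein of many interneurons, gave 7, 127, 17 and 44 UMIs (36.5, 389, 101 and 228 CPM), a log2 fold change of 2.22 ± 0.30 (SE), adjusted p 1.8e-09. Npas3, a transcription factor gene, gave 35, 182, 24 and 74 UMIs (182, 557, 142 and 384 CPM), a log2 fold change of 1.53 ± 0.25, adjusted p 1.2e-06. With 1 library left out at a time, Reln ran from 1.67 (without females on saline) to 3.11 (without males on saline). Npas3 ran from 1.24 to 1.79. Reln was seen in 55 of the 155 nuclei, and 1 nucleus gave 47.7% of its UMIs in cocaine males. In nuclei with 5 or more Sox6 UMIs Reln stood at 1.56 (adjusted p 0.42) and Npas3 at 0.60 (0.68).

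Mbp, a myelin gene, gave 6, 73, 12 and 44 UMIs, a log2 fold change of 2.18 ± 0.32 (SE) with an adjusted p of 3.0e-08. In cocaine males 1 nucleus gave 77.3% of the Mbp UMIs. Without the 8 marked doublets the Mbp value was 0.66 (adjusted p 0.87). Of the 3 tested genes of the oligodendrocyte list 1 rose (Mbp) and 0 fell; all 3 had both cocaine libraries above both saline libraries, as did 17.6% of all genes tested, and their median was 2.18. Leaving out 1 library moved Mbp to between 1.67 and 2.83. The part of oligodendrocyte RNA in the other calls was not tested. Without the marked doublets Vgf, Scg2, Tac1 and Pde10a had log2 fold changes of 1.79, 1.25, 1.75 and 1.11, none with an adjusted p under 0.05.

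A further 5 genes were among the 12 higher genes of smallest adjusted p. Kcnq5, a potassium channel gene, had a log2 fold change of 1.85 ± 0.33 (SE), the vesicle protein gene Sv2c 2.36 ± 0.43, and the collagen gene Col19a1 2.97 ± 0.54. They were seen in few nuclei: Kcnq5 in 3 of 40 cocaine male nuclei, Sv2c in 9 of 57 cocaine female nuclei, and Col19a1 in 7 of 57. Arid5b, a chromatin factor gene (1.31 ± 0.28), and Pitpnc1, a lipid transfer gene (0.97 ± 0.22), were seen more widely, Pitpnc1 in 23 of 25, 48 of 57, 20 of 33 and 37 of 40 nuclei. The call of Kcnq5 was lost without the saline male library, of Sv2c without cocaine males, of Col19a1 without cocaine females, of Arid5b without saline females or cocaine males (0.69), and of Pitpnc1 without cocaine females or saline males.

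Stimate, whose product promotes calcium entry at junctions of endoplasmic reticulum and plasma membrane, fell. It gave 17, 6, 26 and 7 UMIs, or 88.6, 18.4, 154 and 36.3 CPM, with both cocaine libraries below both saline libraries. The saline mean was 121 ± 46.4 CPM and the cocaine mean 27.4 ± 12.7 CPM (SD, n = 2 each), a log2 fold change of -2.15 ± 0.45 (SE), adjusted p 0.00081. Stimate was seen in 14 of 25, 6 of 57, 19 of 33 and 5 of 40 nuclei, and the nucleus with the most gave at most 28.6% of a library's UMIs. At 3000 UMIs the shares were 20.0%, 7.02%, 40.6% and 8.33%, where oligodendrocytes stood at 20.9%, 21.6%, 18.3% and 29.5%; both cocaine libraries were below, and the saline male library above, every one of those. The Stimate call was lost without females on cocaine, or without males on saline, at -1.69 and -1.77.

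Prlr, the prolactin receptor gene, gave 12 UMIs in females on saline, 0 in females on cocaine, 24 in males on saline and 1 in males on cocaine. Pooled over libraries this was 36 UMIs against 1, a ratio of 50.6 with an exact 95% interval of 8.53 to 2055 that covers counting error only. These UMIs came from 5, 0, 3 and 1 nuclei, so 8 saline nuclei held all 36. The edgeR adjusted p was 9.1e-06, and Prlr also fell in medium spiny neuron nuclei (-2.68 ± 0.39, adjusted p 0.0012).

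Adarb2, an RNA-editing family gene, was at 1048, 270, 670 and 353 CPM, a log2 fold change of -1.49 ± 0.22 (SE) with an adjusted p of 2.1e-08. In saline females 1 nucleus gave 47.8% of its UMIs, and 12 of 25 nuclei held any. With an Sst minimum of 5, which leaves out nuclei with 3 or 4 Sst UMIs, the Adarb2 value was -0.045 (adjusted p 0.99). The other lower genes with a small adjusted p were the transcription factor gene Zfhx3 (-1.62 ± 0.29), the syntrophin gene Sntg2 (-1.21 ± 0.26), Scube1 (-1.15 ± 0.26), the transcription cofactor gene Lmo4 (-1.09 ± 0.27), the receptor gene Lrp1b (-0.76 ± 0.19), the adhesion genes Sdk1 (-0.91 ± 0.24) and Kirrel3 (-0.73 ± 0.20), and the integrin gene Itgb8 (-1.66 ± 0.44). Scube1 was seen in 3, 6, 4 and 1 nuclei and Zfhx3 in 6, 7, 4 and 3. Leaving out 1 library moved Zfhx3 to between -2.80 and -1.04, Scube1 to between -2.28 and -0.57, Sdk1 to -0.31 without saline females and Sntg2 to -0.63 without cocaine females. Of these 8, each lost its call in at least 2 of the 4 fits that left out 1 library, as Itgb8 and Kirrel3 did in all 4. With an Sst minimum of 2, Scube1, Lmo4, Lrp1b, Sdk1, Itgb8, Kirrel3 and Chrm2 lost theirs too.

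**Figure D4:**
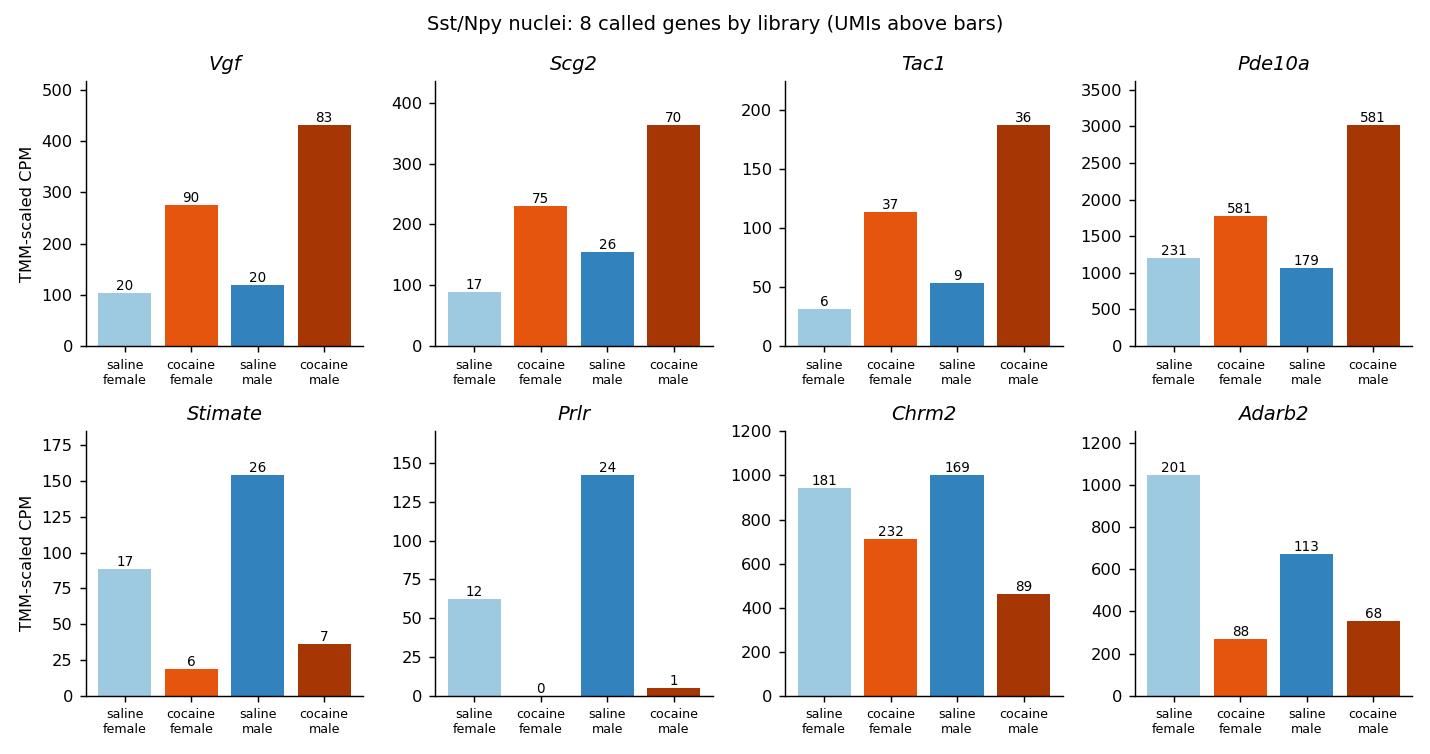
TMM-scaled CPM (bars, from 0) of 8 called genes in the Sst/Npy nuclei of each library, with UMIs above the bars. Vgf, Scg2, Tac1 and Pde10a were higher in both cocaine libraries; Stimate, Prlr, Chrm2 and Adarb2 were lower in both.

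**Figure D5:**
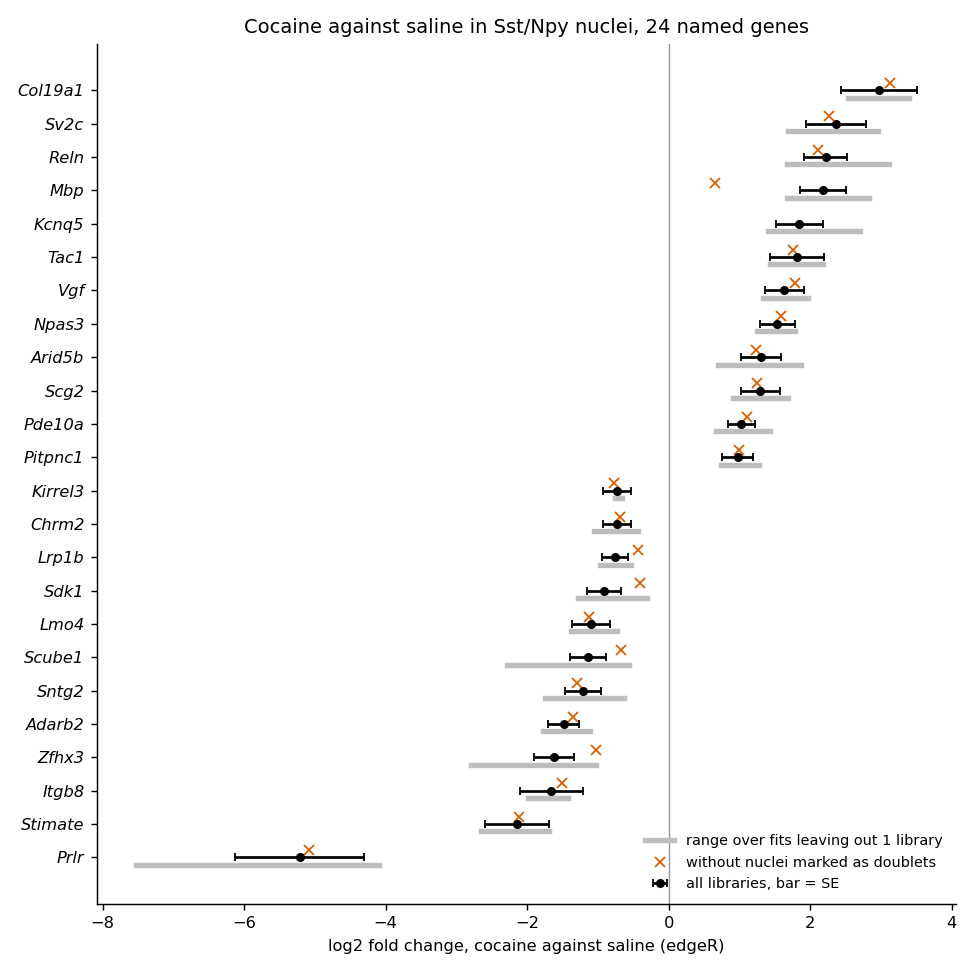
Log2 fold change of cocaine against saline for the 24 named genes (points, bars are SE), the range over fits that left out 1 library (grey) and the value without nuclei marked as doublets (crosses; Kcnq5 was not tested there). Each of the 24 kept its sign; Mbp moved most without the marked doublets, from 2.18 to 0.66.

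Whether the response was the same in other neurons was tested with a term for class and treatment, on 2 sums per library. These differences were refitted only with no count filter and with 1 library left out, not in the other alternatives. Against Pthlh/Kit nuclei 4 of 6049 genes differed (0.0661%), and between 20 and 22 when a library was left out. Vgf differed: Pthlh/Kit nuclei gave 14 and 6 Vgf UMIs with saline (females, then males) and 0 in both cocaine libraries. Against a floor of 3 UMIs over the group the cocaine level was 3.05-fold lower. That floor covers counting error of separate UMIs only. The adjusted p of the Vgf difference between classes was 0.015, and its fitted size is no bound. Adarb2 rose in Pthlh/Kit nuclei by 1.31 ± 0.16 (SE; 27 of 5901 genes, 0.458%, were called there) and fell in Sst/Npy nuclei, a difference of -2.83 ± 0.28 with an adjusted p of 5.8e-06. The fall in Sst/Npy nuclei is the one that was -0.045 with an Sst minimum of 5, and the difference was not refitted there. All 4 kept their calls in each fit that left out 1 library. Col19a1 and Kcnq5 made up the other 2, at differences of 3.30 ± 0.54 and 2.24 ± 0.39. For Scg2 the difference was 0.70 ± 0.37 (adjusted p 0.93).

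Against medium spiny neurons 37 of 13462 genes differed (0.275%), 27 higher and 10 lower in Sst/Npy nuclei, and between 15 and 19 when a library was left out. Medium spiny neuron nuclei held 19.8, 24.7, 25.7 and 28.8 CPM of Vgf, unscaled, in the 4 libraries, where the same unscaled level in Sst/Npy nuclei was 89.1, 242, 104 and 386. Their own Vgf change was 0.22 ± 0.11 (adjusted p 0.44; 149 of 13657 genes, 1.09%, were called there), and the difference was 1.43 ± 0.31 with an adjusted p of 0.0046. Pde10a and Stimate also differed, by 1.09 ± 0.24 and -2.05 ± 0.45, both with an adjusted p of 0.0046. The Vgf difference stayed between 1.21 and 1.61 when 1 library was left out but passed only without the cocaine female library; the Pde10a difference was lost without either male library, at 0.73 without the cocaine male, and the Stimate difference without females on cocaine or males on saline. Scg2 rose in medium spiny neurons by 0.55 ± 0.07 (adjusted p 0.00060), and its difference of 0.75 ± 0.28 did not pass (adjusted p 0.55). The difference for Tac1, 1.15 ± 0.40, did not pass either (adjusted p 0.46), nor did that of Chrm2, 0.24 ± 0.25. In medium spiny neurons Chrm2 fell by 0.93 ± 0.21 on the log2 scale (adjusted p 0.043).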

How the data were processed

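The 4 libraries are droplet (10x) single-nucleus RNA libraries of rat nucleus accumbens. The deposited values are raw UMI counts per gene and nucleus, made with Cell Ranger 6.1.2 per the file headers, on genome build rn7 per the submitters' processing notes. Every deposited barcode held at least 200 genes. No doublet removal is stated in the sources used here. The members and gene lists were chosen with earlier results of these data known.

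Groups came from the labels, with 2 libraries per treatment. Counts were summed per library and class and tested with edgeR 4.0.16 (limma 3.58.1, R 4.3.3): filterByExpr, TMM scaling, the quasi-likelihood test with sex as covariate, and Benjamini-Hochberg adjustment over all genes tested, with a threshold of 0.05. Differences between classes used a class-by-treatment term with library as a block. Nuclei were thinned to 3000 UMIs, leaving out shallower ones; intervals are exact binomial at 95% (scipy 1.17.1, numpy 2.4.6, Python 3.11.15). Scrublet (scanpy 1.11.5) marked 0.8% of nuclei per 1000 in a library. Named genes are those of the lists, the 12 higher and 12 lower called genes of smallest adjusted p with a symbol, the 4 per direction for each class difference, and the genes of the rule. Ell2 and the class differences of Vgf and Pde10a against medium spiny neurons were added after their values were seen. Alternatives were DESeq2 1.42.0, no count filter, no sex covariate, each library left out, other Sst minimums, no Npy and Nos1 condition, no nuclei with medium spiny receptor UMIs, no marked doublets, free RNA subtracted at the lower of the oligodendrocyte and astrocyte levels, and, chosen after seeing the data, nuclei with 5 or more Sox6 UMIs. The fit was tested on simulated counts. One result is not reported here.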

Additional observations from a re-analysis of the deposited data

Results flagged for a closer look

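The cocaine effect differed between Sst/Npy nuclei and another neuron class, by a test of the difference itself in edgeR with an adjusted p under 0.05, in the genes below. Each value is the log2 fold change in Sst/Npy nuclei minus that in the other class.

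Against Pthlh/Kit nuclei the difference was 3.30 for Col19a1, 2.24 for Kcnq5, 7.28 for Vgf and -2.83 for Adarb2. The fitted size for Vgf is no bound, since the cocaine libraries of Pthlh/Kit nuclei held 0 Vgf UMIs. Pthlh/Kit nuclei were 64 and 56 with saline in females and males, and 39 and 26 with cocaine.

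Against medium spiny neurons the difference was 1.94 for Npas3, 2.08 for Mbp, 1.67 for Reln, 1.43 for Vgf, 1.09 for Pde10a, -1.32 for Adarb2, -2.05 for Stimate, -1.26 for Lmo4 and -1.78 for Itgb8. Eya4, a transcription cofactor gene, gave 0, 53, 0 and 9 UMIs in the Sst/Npy nuclei of the 4 libraries, from 6 cocaine female and 2 cocaine male nuclei. Against a floor of 3 UMIs over the saline group, the Eya4 level with cocaine was 14.7-fold higher. That floor covers counting error of separate UMIs only. The 62 UMIs came from these few nuclei, so the fold is no lower limit. The fitted difference of 12.07 is no bound either. Leaving out 1 library moved the Npas3 difference to between 1.34 and 2.35. In Sst/Npy nuclei with 5 or more Sox6 UMIs the Npas3 change itself was 0.60 (edgeR adjusted p 0.68). Mbp lost its call without saline females, Reln, Adarb2 and Lmo4 without either female library, and Itgb8 without any 1 of cocaine females, saline males and cocaine males. Oligodendrocytes held 1.18 Eya4 UMIs per nucleus, and the part of their RNA in the Eya4 and Mbp values was not tested.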

How the results depend on the processing

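Of 36 genes called between cocaine and saline, 0 passed by DESeq2, without the sex covariate, without medium spiny receptor UMIs and without marked doublets, 4 passed with 5 or more Sox6 UMIs, and 74 genes passed with an Sst minimum of 5; leaving out 1 library gave 20 to 37. Of those genes tested, all kept their sign in every alternative except Lrp1b, at 0.056 with 5 or more Sox6 UMIs. Every alternative reused the libraries that the calls came from. The class difference against Pthlh/Kit nuclei gave 26 genes with no count filter and 20 to 22 with 1 library left out, against 4; that against medium spiny neurons gave 15 to 19, against 37. The cause of these moves was not tested. The share of Sst/Npy nuclei was 0.197% in saline females and 0.313% in saline males after thinning, and 0.578% in cocaine females with an Sst minimum of 5. Left-out-library fits had no sex covariate, and the lone library of an arm was assumed to vary like the others. Depth limits low genes: 1 of 32 immediate-early and 8 of 26 receptor genes could be tested. The labels carry no replicate numbers to pair libraries by. Sex ties 1 saline to 1 cocaine library, so the sex covariate of the fit acts as a pairing by sex. Without the sex covariate 0 genes passed.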

Other observations

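Class sizes were not equal across libraries. Glutamatergic nuclei numbered 29 in females on saline and 151 in females on cocaine, and 28 and 66 in males. They were more numerous in the cocaine library of each sex, while Pthlh/Kit nuclei were fewer, and no test was made with 1 library per sex and treatment.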
